A study of Mus musculus with 6 samples.

Results

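The regions described here are the places in the mouse genome where a Grhl3 peak was listed in embryonic skin, in adult epidermis after depilation and in adult epidermis after imiquimod. They are called core regions. They were chosen from the deposited peak lists themselves, by position alone. A peak of E16.5 replicate 1 counted as embryonic if a replicate 2 peak overlapped it by at least 1 bp. These embryonic peaks were merged with the peaks of both adult lists where they overlapped or touched, and a merged region was kept if it lay on an autosome, was 5 kb or narrower and held a peak of all 3 conditions. Of 13035 merged regions, 12893 lay on autosomes within the width limit, and 748 of these were core regions, or 5.8%. Because the rule used the peak lists, the presence of a peak in every list is a description of the core regions and not a result about them, and no value from these lists is given with a test.

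Grhl3 is a DNA-binding transcription factor of the grainyhead-like family, which is conserved from flies to mammals and acts in surface epithelia. Its family binds a short palindromic DNA element. In mouse skin Grhl3 is needed in the upper layers of the epidermis for the formation of the water barrier, through genes of the cornified envelope, of cell junctions and of lipid handling, and it is also needed for closure of embryonic wounds. The series, by its title, concerns the repair of the epidermal barrier after a physical and after an immune injury.

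Binding was measured by ChIP-seq, the sequencing of DNA fragments precipitated with an antibody, here a custom-made antibody against Grhl3. The 4 Grhl3 libraries were 2 replicates of whole back skin of E16.5 embryos, 1 library of adult epidermis at day 4 of depilation (removal of hair) and 1 of adult epidermis of the imiquimod experiment (an immune stimulant that inflames the skin). Each precipitation took 28 µg of sonicated chromatin, and adult epidermis was parted from dermis with dispase before fixation. The labels give no strain, genotype, sex, imiquimod dose or imiquimod time, and do not say whether animals were pooled or whether separate embryos gave the 2 E16.5 libraries. No list of uninjured adult epidermis was among those analysed, so a core region is not thereby a site gained in injury. Age, tissue (whole skin against epidermis) and treatment change together between the embryonic and adult libraries and cannot be told apart.

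The 748 core regions took up a different share of each list. They held 751 of the 3771 reproducible E16.5 peaks, or 19.9% (exact 95% binomial interval 18.7 to 21.2), 881 of the 4820 depilation peaks, or 18.3% (17.2 to 19.4), and 805 of the 7974 imiquimod peaks, or 10.1% (9.44 to 10.8). Of all peaks of each embryonic list, reproducible or not, they held 6.46% of the 11619 of replicate 1 (6.02 to 6.93) and 8.64% of the 9685 of replicate 2 (8.09 to 9.22). Whether the embryonic share is above or below the adult shares thus depends on counting reproducible peaks alone. With the rule run on a single embryonic list it was 8.27% without replicate 1 and 9.53% without replicate 2, below both adult shares given above. Those runs gave 758 and 1100 core regions, and the adult shares, which change with them, were not counted there. Seen over regions, 20.2% of the 3695 autosomal regions with a reproducible E16.5 peak were core regions, against 16.4% of the 4557 with a depilation peak and 9.51% of the 7865 with an imiquimod peak. These shares have a common numerator, so they differ by the number of regions in each condition alone. That number depends on depth and on the threshold of each list, and library depth is unknown. The intervals cover counting error only.

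The outline of a core region was mostly that of its E16.5 replicate 1 peak. In 640 of the 748 core regions, or 85.6% (82.8 to 88), the region was exactly that peak. In the other core regions an adult peak, or a second embryonic one, reached beyond it. Core regions were 371 to 2434 bp wide, with a median of 875.5 bp (quartiles 706 and 1077), so the limit of 5 kb removed none. Only 1 merged autosomal region of any kind was wider than 5 kb, at 6512 bp. On chromosome X, 2 further regions held all 3 conditions and were left out by the rule.

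Inside this outline the peaks of the lists had different widths. The best scoring peak of a core region had a median width of 864 bp in E16.5 replicate 1, 501 bp in E16.5 replicate 2, 400.5 bp after imiquimod and 283.5 bp after depilation. Over all peaks of a list the medians were 445, 232, 277 and 204.5 bp in the same order. Core peaks were thus wider than their list in all 4 cases, but so were the best peaks of regions of only 2 conditions. There the medians were 673 and 752 bp in E16.5 replicate 1, 253 and 256.5 bp after depilation, and 359 and 350.5 bp after imiquimod. A rule of overlap can favour wide peaks, and its part in these widths was not tested. In 540 core regions (72.2%, interval 68.8 to 75.4) each of the 4 lists held exactly 1 peak.

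**Figure D1:**
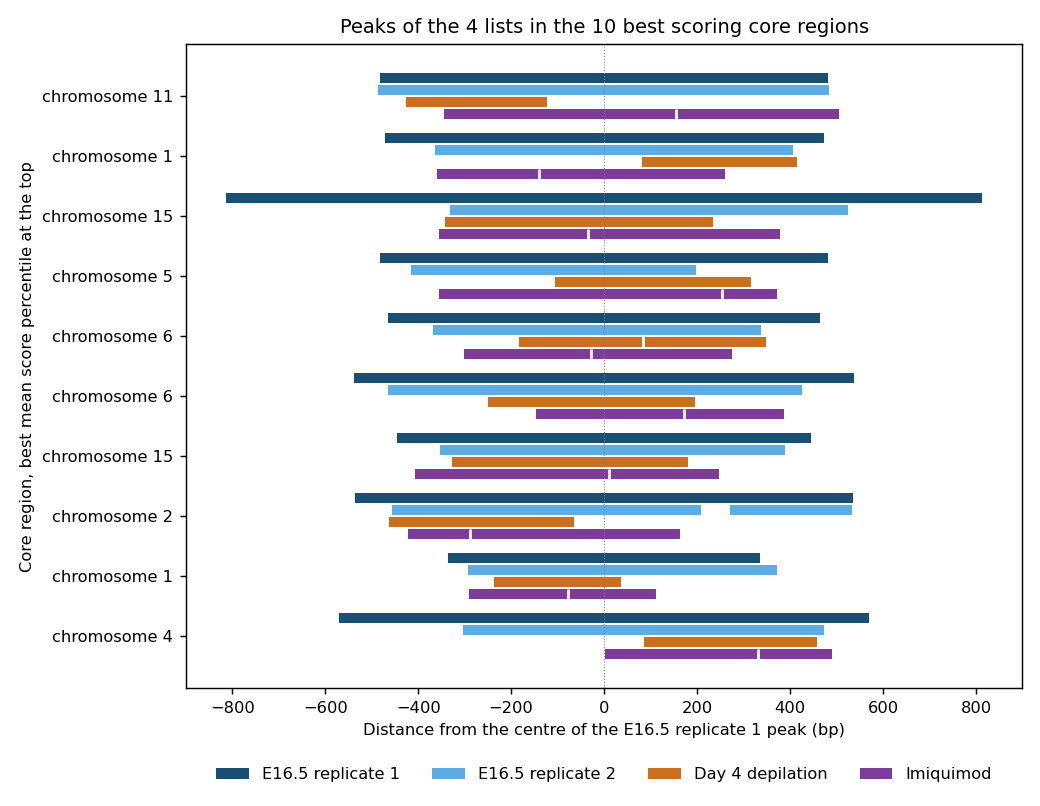
Peaks of the 4 lists in the 10 core regions with the highest mean score percentile, drawn to scale by distance in bp from the centre of the E16.5 replicate 1 peak, with a white tick at the imiquimod summit. In each of these regions the E16.5 replicate 1 bar spans nearly the whole region, and the depilation bar is narrower than it.

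The peaks of the 3 conditions lay on top of each other in nearly all core regions. Core regions were merged from overlapping or touching peaks, so much of this overlap follows from the rule. A common base was covered by E16.5 replicate 1, depilation and imiquimod peaks in 713 of 748 core regions, or 95.3% (93.6 to 96.7), and by peaks of all 4 lists in 665, or 88.9% (86.4 to 91.1). Where the 3 conditions had common bases, these ran over a median of 253 bp (quartiles 203 and 316, range 6 to 664). In each of the 748 regions the E16.5 replicate 1 peak overlapped a peak of both adult lists directly. The depilation and imiquimod peaks overlapped each other in 714 regions, the E16.5 replicate 2 and imiquimod peaks in 724, and the E16.5 replicate 2 and depilation peaks in 699.

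The centres of the best peaks were about 100 bp apart. Between E16.5 replicate 1 and depilation the median distance was 100.5 bp (quartiles 48 and 187.5), between E16.5 replicate 1 and imiquimod 83.5 bp (37 and 161), and between depilation and imiquimod 83.5 bp (36.5 and 166). Between the E16.5 replicates it was 87 bp (34.4 and 173). The distance between embryonic and adult centres was about as long as that between the 2 embryonic replicates. The rule required all these peaks to join in one region, which bounds every distance, so nothing is concluded from this likeness. The signed distances had medians between -11.5 and 12 bp over the 6 pairs of lists, so no list was shifted as a whole along the chromosomes. They follow chromosome coordinates, so an offset relative to a gene or motif would not show in them.

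Regions of only 2 conditions had centres as near or nearer to each other. The median distance was 74.5 bp in 665 regions of E16.5 and depilation, 81 bp in 609 regions of E16.5 and imiquimod, and 50.25 bp in 454 regions of depilation and imiquimod. The E16.5 replicate 1 peaks of core regions were also wider than those of the other sets, with a median of 864 bp against 673 bp with depilation and 752 bp with imiquimod. These differences were not tested.

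**Figure D2:**
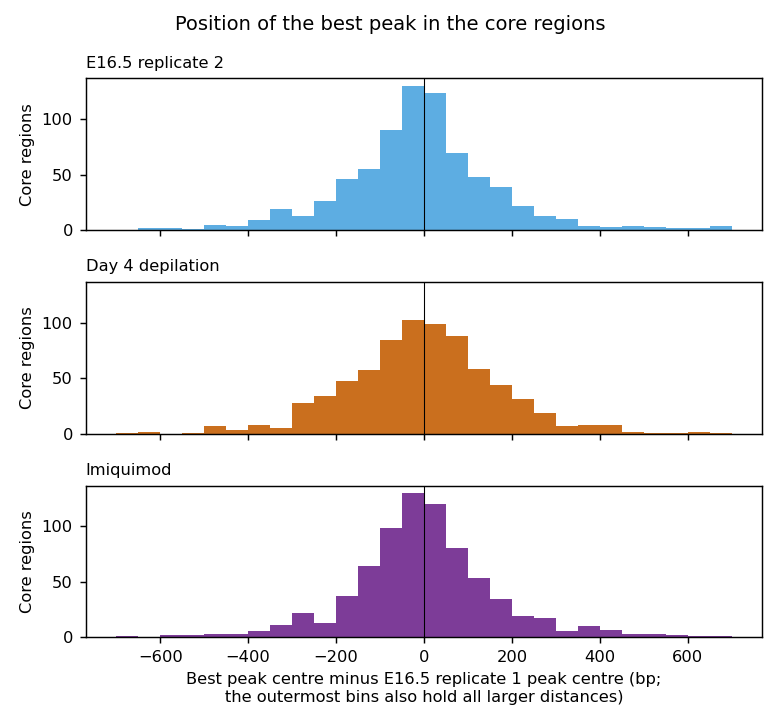
Histograms of the distance in bp from the centre of the E16.5 replicate 1 peak to the centre of the best peak of E16.5 replicate 2, day 4 depilation and imiquimod in the 748 core regions, in bins of equal width. All 3 histograms are highest next to 0, and the depilation histogram is the lowest and broadest there.

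The imiquimod list alone gives a summit, the position the caller gives as the high point of a peak. The imiquimod summit fell inside the best E16.5 replicate 1 peak in 745 of the 748 core regions, inside the best E16.5 replicate 2 peak in 604 (80.7%, interval 77.7 to 83.5) and inside the best depilation peak in 495 (66.2%, 62.7 to 69.6). Peaks of a core region were merged by overlap, which raises such shares, and the order of the shares is also the order of the peak widths. In the 609 regions of E16.5 and imiquimod without depilation, the summit fell inside the best E16.5 replicate 1 peak in 598, or 98.2% (96.8 to 99.1). The share in core regions was 99.6% (98.8 to 99.9). In the 454 regions of the 2 adult lists without a reproducible embryonic peak, the summit fell inside the best depilation peak in 363, or 80% (76 to 83.5). In those 454 regions the best depilation peaks had a median width of 256.5 bp and the best imiquimod peaks 350.5 bp, against 283.5 and 400.5 bp in core regions. Only the best depilation peak was counted, and 2 or more depilation peaks were listed in 2.42% of them and in 16.4% of core regions. The part of these values in the difference was not tested.

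In a minority of core regions the wide embryonic peak covered several adult peaks. Depilation had 2 or more peaks in 123 core regions, or 16.4% (13.9 to 19.3), E16.5 replicate 2 in 82, or 11% (8.81 to 13.4), and imiquimod in 52, or 6.95% (5.24 to 9.02). The share with several depilation peaks was higher where the E16.5 replicate 1 peak was wider. It was 5.26% (2.55 to 9.47) of 190 core regions with an embryonic peak of up to 700 bp and 28.4% (21.7 to 35.8) of 169 with one over 1100 bp. In regions of E16.5 and depilation without imiquimod the same shares were 2.49% (1.14 to 4.67) of 362 and 23.4% (13.8 to 35.7) of 64. Between these widths the core share was 11.5% (7.56 to 16.46) of 218 against 4.4% (1.79 to 8.86) of 159 at 700 to 900 bp, and 23.4% (17.3 to 30.5) of 171 against 16.3% (8.95 to 26.2) of 80 at 900 to 1100 bp. For depilation the core share was the higher one in all 4 width classes. For imiquimod it was not. From the narrowest class to the widest, 0%, 2.75%, 5.85% and 21.3% of core regions held 2 or more imiquimod peaks. In regions of E16.5 and imiquimod without depilation the shares were 1.17%, 2.19%, 8.18% and 13.6%. These differences were not tested.

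Paired depilation peaks sat on either side of the embryonic centre. In the 114 core regions with exactly 2 depilation peaks, their centres lay at medians of -180.25 and 200.5 bp from the E16.5 replicate 1 centre. That centre was between them in 100 regions, or 87.7% (80.3 to 93.1). The 2 centres were a median of 359.5 bp apart, with 80 bp free of either peak between them. For the 47 regions with exactly 2 imiquimod peaks the centres lay at -286 and 266 bp, and for the 76 with exactly 2 E16.5 replicate 2 peaks at -240.75 and 236 bp. Peaks that must overlap a wide peak and not each other tend to lie to either side of its centre, and this layout was not compared with any other.

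By peak score, the value the authors' caller gives each peak, core peaks ranked high in each list. Whether scores of different lists share one scale is not stated, so lists were compared mainly by percentile, the rank of a peak within its own list. The best peak of a core region had a median score of 141 in E16.5 replicate 1 (range 50.92 to 484.39), against 69.06 over that list. It was 87.06 in E16.5 replicate 2 (50.05 to 505.11), against 64.08. It was 78.47 after depilation (50.36 to 277.11), against 60.4, and 117 after imiquimod (52.64 to 249.32), against 69.6. The median percentiles were 87.5, 77.2, 77 and 82.1 in the same order. Regions of only 2 conditions ranked above the middle of their lists too. Their medians were 76.3 (with depilation) and 80.6 (with imiquimod) in E16.5 replicate 1, 65.7 (with E16.5) and 71.6 (with imiquimod) after depilation, and 74 (with E16.5) and 75.6 (with depilation) after imiquimod. Taking the best peak of each region raises such a rank, and the difference between core and other regions was not tested.

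A high rank was not shared by all core regions. In E16.5 replicate 1, 313 of the 748 were in the top 10% of the list and 50 in the lower 50%. For E16.5 replicate 2 these counts were 192 and 159, for depilation 188 and 162, and for imiquimod 241 and 105. In the top 10% of all 4 lists there were 16 core regions. In the lower 50% of at least 1 list there were 366, and in the lower 50% of both adult lists 30. Only 1 region was in the lower 50% of all 4 lists. A score of 100 or more in all 4 lists, a limit on the scores as given, was reached by 62 core regions.

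**Figure D3:**
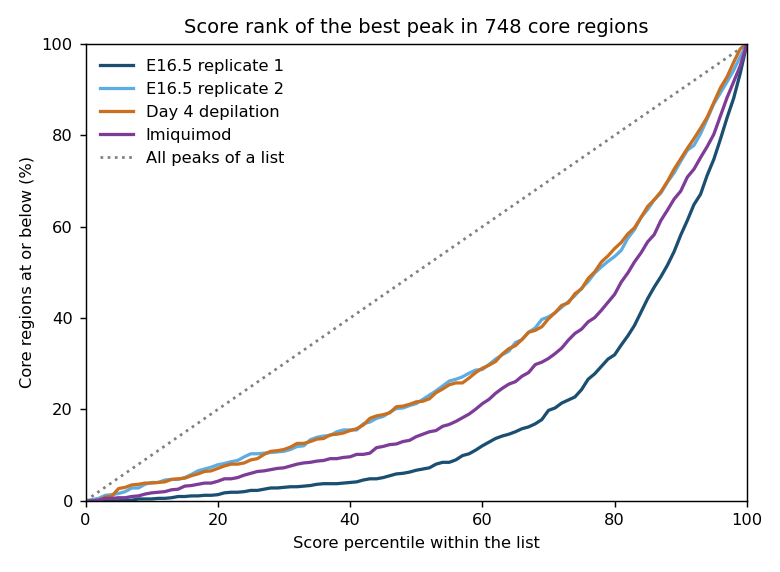
Cumulative share in percent of the 748 core regions (vertical axis) whose best peak is at or below a given score percentile of its own list (horizontal axis), for the 4 lists, with a dotted line for all peaks of a list. All 4 curves run below the dotted line, E16.5 replicate 1 lowest, and those of E16.5 replicate 2 and depilation nearly coincide.

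The order of the core regions differed from list to list. Across the 748 regions Spearman's rho between scores was 0.26 for the E16.5 replicates, 0.12 for E16.5 replicate 1 and depilation, 0.13 for E16.5 replicate 1 and imiquimod, and 0.14 for depilation and imiquimod. For E16.5 replicate 2 it was 0.10 with depilation and 0.07 with imiquimod. These are descriptions over regions that all passed the threshold of each list, which narrows the range of scores. Of the 75 best core regions of one list, 10 to 15 were also among the 75 best of another. Sets of 75 out of 748 regions share some members even where the orders are unrelated. That number was not computed, so these counts are not read as likeness or unlikeness of order. Within a region the highest and the lowest of the 4 percentiles were a median of 41 points apart. The lowest was most often that of E16.5 replicate 2 (248 regions) or depilation (238).

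**Figure D4:**
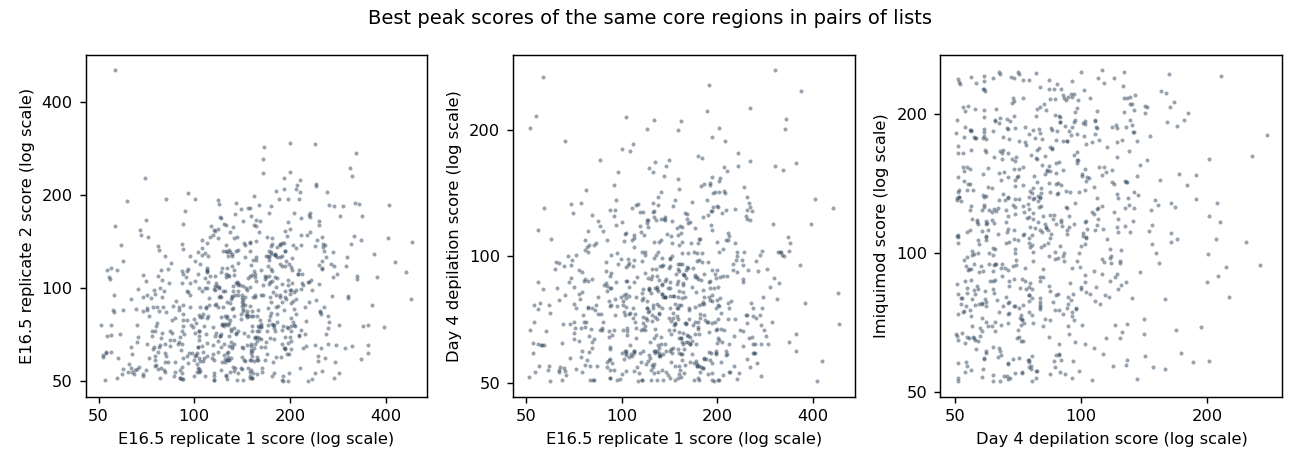
Best peak score of each of the 748 core regions in 2 lists at a time, on log axes, 1 point per region. The points form broad clouds in each panel, and a single point at the top left of the first panel is the chromosome 17 region that scored 505.11 in E16.5 replicate 2 and 56.5 in replicate 1.

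Score also followed width. The rho of score with peak width was 0.49 in E16.5 replicate 1, 0.51 in E16.5 replicate 2, 0.64 after depilation and 0.75 after imiquimod. Widths of different lists were less related, with 0.31 between the E16.5 replicates and 0.13 between depilation and imiquimod.

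The 10 core regions with the highest mean percentile were on chromosomes 1, 2, 4, 5, 6, 11 and 15 (positions on mm9, counted from 1). Their mean percentiles ran from 95.5 to 98.4. The first, on chromosome 11 at 53163787 to 53164775, had nearly the same outline in the 2 E16.5 lists, 53163787 to 53164752 and 53163782 to 53164754. Its depilation peak lay at 53163844 to 53164146, in the left part, and its imiquimod peak at 53163924 to 53164775. All 4 peaks shared 223 bp. It held 119 imiquimod tags, the most of the 10, at a fold enrichment of 4.54, the lowest of the 10.

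The region on chromosome 15 at 81523985 to 81525610 had the best aligned peaks of the 10. In E16.5 replicates 1 and 2 it scored 231.48 and 169.2, and in the depilation and imiquimod lists 175.98 and 194.32. The centres of the 3 conditions were a mean of 43.7 bp apart, and 567 bp were common to all 4 lists. The other region of this chromosome, at 78744213 to 78745102, scored 196.1, 147.74, 141.74 and 201.13, with 507 common bp.

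On chromosome 5, the region at 124699161 to 124700125 scored 242.44 and 216.12 in the embryo, 146.06 after depilation and 179.3 after imiquimod. Those on chromosome 6 were at 48035912 to 48036842, with scores of 252.74, 146.59, 130.94 and 218.03, and at 54766475 to 54767550, with 191.84, 227.13, 127.74 and 187.49. The former held 2 depilation peaks. The chromosome 1 region at 10222543 to 10223487 scored 209.23, 208.85, 143.19 and 207.71, and its best peaks shared 179 bp, the fewest of the 10.

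The chromosome 2 region at 168056099 to 168057169 scored 264.72, 185.11, 97.58 and 206.37, and the depilation score, at percentile 88.6, was the single value of the 10 regions below percentile 91. Its E16.5 replicate 2 signal was called as 2 peaks, the weaker of which (score 63.27) lay to the right of both adult peaks. The chromosome 4 region at 151382874 to 151384013 scored 160.07, 152.13, 126.07 and 230.21. Its depilation and imiquimod peaks both lay in the right part of the E16.5 replicate 1 peak, from 86.5 and 1.5 bp past its centre. The chromosome 1 region at 91864729 to 91865401 was the narrowest of the 10, at 673 bp.

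The regions with the highest score in one list often ranked lower in others. The best E16.5 replicate 1 score, 484.39 on chromosome 6 at 94649267 to 94650351, went with 140.97 in E16.5 replicate 2, 69.06 after depilation and 197.95 after imiquimod. The next, 480.04 on chromosome 5 at 43624118 to 43626452, went with 92.53, 81.64 and 210.11. This 2335 bp region held 2 peaks of E16.5 replicate 2, 1 depilation peak and 3 imiquimod peaks, the last at scores of 114.19, 109.45 and 210.11 from left to right. The best depilation score, 277.11 on chromosome 10 at 66589307 to 66590361, went with 303.85 and 92.8 in the embryo and 180.05 after imiquimod, and this region had the longest stretch common to the 3 conditions, 664 bp.

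The chromosome 17 region at 36367991 to 36368679 ranked very differently between the embryonic replicates. It had the best E16.5 replicate 2 score of all core regions, 505.11, and the second best depilation score, 266.36. Its E16.5 replicate 1 score was 56.5, at percentile 26.2, and its imiquimod score 94.33. It held 164 imiquimod tags, the most of any core region, at a fold enrichment of only 4.37. The input libraries were not analysed here.

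The second best E16.5 replicate 2 score, 293.28, was on chromosome 8 at 74000010 to 74000894, with 200.52 in replicate 1, 191.41 after imiquimod and 63.83 after depilation. The best imiquimod scores were 249.32, from 57831456 to 57832632 of chromosome 1, and 247.59, from 119940298 to 119941806 of chromosome 4. They went with 142.67, 64.14 and 111.86, and with 151.84, 60.21 and 63.73, in E16.5 replicates 1 and 2 and after depilation. Their E16.5 replicate 2 scores were at percentiles 50.5 and 41.9.

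Imiquimod peaks of core regions held more tags than those of the whole list, at a similar fold enrichment. Over the 805 imiquimod peaks in core regions the authors' tag count had a median of 49 (quartiles 38 and 65, range 17 to 164), against 29 (22 and 42) over the 7974 peaks of the list. Their fold enrichment over the caller's background had a median of 6.44 (quartiles 5.56 and 7.48, range 3.43 to 12.96), against 6.65 (5.82 and 7.69). Core peaks held 15.3% of the tags of the list on 14.2% of its length. Within core regions the score had a rho of 0.85 with tags and 0.57 with fold enrichment. Tags had a rho of 0.95 with the width of the imiquimod peak.

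At like score, too, the core peaks were wider and held more tags at a lower fold enrichment. Among imiquimod peaks scoring up to 75, the 166 in core regions had medians of 32 tags, 293 bp and a fold enrichment of 5.37, and the 4370 others 23 tags, 227 bp and 6.57. Among those scoring above 150, the 224 in core regions had medians of 71 tags, 536 bp and 7.44, and the 522 others 64 tags, 478 bp and 7.81. In the score ranges between these the order was the same. The core peaks also scored higher within each range, with medians of 62.86 against 59.09 and 188 against 177 in the ranges named. Regions of E16.5 and imiquimod without depilation had a median fold enrichment of 6.46 in their best peak, those of the 2 adult lists without a reproducible embryonic peak 6.67, and core regions 6.465. The best imiquimod peak held a median of 43 tags with E16.5 and imiquimod, 42 with both adult lists and 51 in core regions, all above the 29 of the list. These differences were not tested.

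The highest fold enrichments in core regions were 12.96 on chromosome 2 at 181022202 to 181022912, 12.57 in the chromosome 1 region at 91864729 to 91865401, and 12.38 from 120459006 to 120460158 of chromosome 11. The region with 12.96 had scores of 206.2, 76.09, 126.84 and 246.9 in E16.5 replicate 1, E16.5 replicate 2, depilation and imiquimod. The one with 12.38 scored 204.21, 90.93, 79.45 and 185.9 in the same order. The lowest were 3.43 on chromosome 1 at 72871044 to 72871531 (scores 54.7, 76.05, 74.88 and 58.49) and 3.91 on chromosome 4 at 107474578 to 107475255.

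Of the 805 core imiquimod peaks, 514 had a false discovery rate (FDR) of 5% or less in the authors' list, or 63.9% (60.4 to 67.2), against a background of 46.4% over the list. In this list the FDR is lowest, at 2.9%, for a score of 112.74 and rises toward both ends. The list stops at an FDR of 10% and a score of 249.45. The highest score is 1588.84 in E16.5 replicate 1 and 3100 in both E16.5 replicate 2 and depilation. The best imiquimod scores of core regions, 249.32 and 247.59, had an FDR of 9.96% and 9.88%. Whether peaks of higher score were left out of the list is not stated and was not tested. Of the 291 core peaks above 5%, 174 scored above 112.74 and 117 at or below it. A limit of 5% on the FDR would therefore remove more core peaks above that score than below it.

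At the lower end, the core regions with the lowest mean percentile were on chromosome 4 at 107474578 to 107475255 (percentile 26), on chromosome 6 at 146673423 to 146673967 (31.1) and, on chromosome 13, from 64271042 to 64271430 (33). The lowest scored 59.6 and 54.68 in the embryo, 50.49 after depilation and 66.7 after imiquimod, and was the region in the lower 50% of all 4 lists. Its peaks still shared 158 bp over all 4 lists. The third held 17 imiquimod tags, the fewest of any core region.

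The widest core region was on chromosome 7 at 91030734 to 91033167, with 2434 bp. It scored 410.43 and 184.97 in the embryo, at percentiles 99.9 and 98.4, 50.52 after depilation, at percentile 2.45, and 85.79 after imiquimod, at percentile 67.1. Its E16.5 replicate 1 peak covered 5 separate E16.5 replicate 2 peaks, and its adult peaks, at 91031764 to 91031948 and 91032157 to 91032535, did not touch each other. The narrowest core regions, on chromosome 1 at 189475677 to 189476047 (371 bp) and on chromosome 10 at 120901112 to 120901495 (384 bp), had their centres a mean of 25 bp apart.

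The overlap of the E16.5 replicate 1 peak with the adult peaks was rarely marginal. The rule also used its overlap with replicate 2, which is not summarised here. The smallest overlap of an E16.5 replicate 1 peak with an adult list was 31 bp, on chromosome 12 at 110291140 to 110292141, where the depilation peak ended just inside the embryonic one. The next was 64 bp, on chromosome 3 at 9608962 to 9610170. There the depilation peak lay at 9609807 to 9610170 and the imiquimod peak at 9609033 to 9609316, on opposite ends of the embryonic peak. Of the 748 regions, 35 had no base common to the 3 conditions, and in these the centres were a mean of 162 to 740 bp apart.

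Few regions just missed the rule for lack of overlap. Of the 665 regions of E16.5 and depilation, 10 had an imiquimod peak within 500 bp, and of the 609 regions of E16.5 and imiquimod, 14 had a depilation peak as near. The nearest were a depilation peak 30 bp from the chromosome 13 region at 53075931 to 53076541 and an imiquimod peak 54 bp from the chromosome 13 region at 110692971 to 110693727. The embryonic side was less clear-cut. Of the 454 regions of the 2 adult lists without a reproducible embryonic peak, 345 (76%, interval 71.8 to 79.9) had an E16.5 replicate 1 peak and lacked replicate 2. These replicate 1 peaks had a median percentile of 76.8, and 23 of the 345 had a replicate 2 peak within 1 kb. A further 42 had a replicate 2 peak alone, and 67 had a peak of neither. Of the 11619 replicate 1 peaks, 3771 overlapped a replicate 2 peak. Replicate 1 peaks were also wider, with a median of 445 bp over the list against 232 bp in replicate 2. The share with replicate 1 alone among all regions with an adult peak is not given here.

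Core regions were found on all 19 autosomes, from 15 on chromosome 18 to 69 on chromosome 5. Their share of the merged regions of an autosome ran from 3.22% (1.81 to 5.25) on chromosome 18 to 7.82% (5.26 to 11.1) on chromosome 19. The interval held the 5.8% of all autosomes in 15 of 19 cases. It lay below on chromosomes 14 (3.82%), 16 (3.64%) and 18 and above on chromosome 5 (7.55%, 5.92 to 9.46). As a share of the regions with a reproducible embryonic peak, core regions ran from 12.7% (7.29 to 20.1) on chromosome 18 to 25.7% (18.9 to 33.4) on chromosome 12. That interval held the overall 20.2% on every autosome but chromosome 18. The intervals cover counting error only, and neighbouring peaks are not independent.

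**Figure D5:**
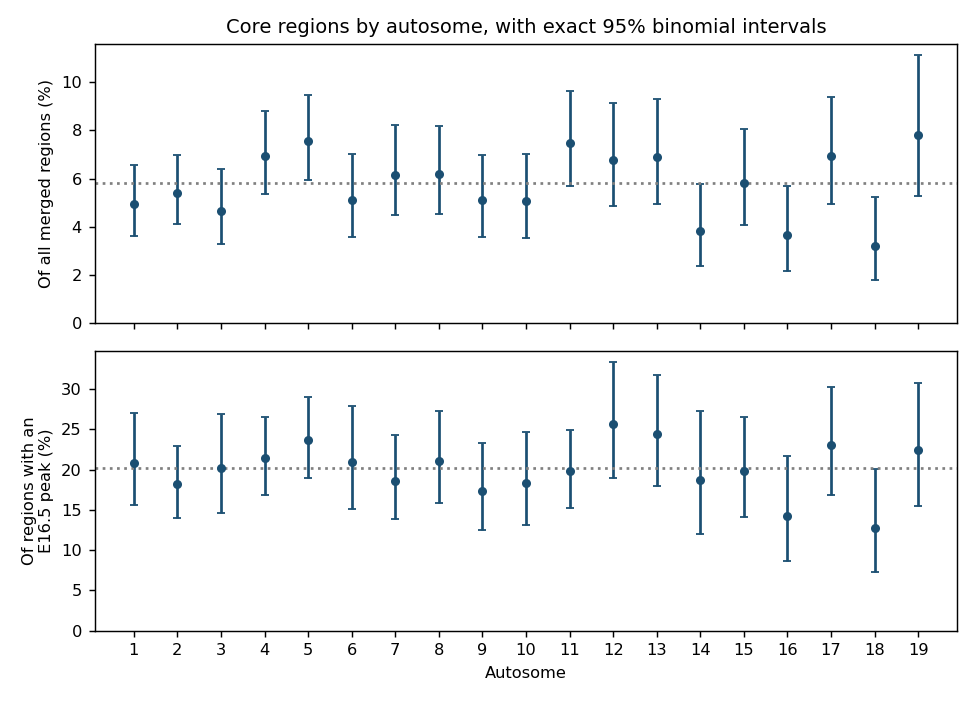
Core regions on each of the 19 autosomes as a percent of all merged regions (top) and of regions with a reproducible E16.5 peak (bottom), as points with exact 95% binomial intervals, with dotted lines at the 5.8% and 20.2% of all autosomes. In the bottom panel the interval of chromosome 18 alone ends below the line.

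Core regions were mostly far from each other, but the spacing of an equally large set of other merged regions was not measured. The nearest other core region was a median of 607 kb away (quartiles 219 and 1877 kb). Another core region lay within 50 kb for 36 of the 748, or 4.81% (3.39 to 6.6), and within 10 kb for 8. Counting merged regions of any kind, the nearest was a median of 57 kb from a core region and 56.9 kb from the other autosomal regions. No other merged region lay within 50 kb of 54.8% of the core regions and of 53.9% of the others. The mean number of other merged regions within 50 kb was 0.672 for core regions and 0.974 for the others. These differences were not tested.

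The densest 200 kb window held 4 core regions, on chromosome 10 from 79100095 to 79229827. From left to right these scored 129.59, 172.1, 133.03 and 272.9 in E16.5 replicate 1, and 53.44, 125.96, 74.31 and 108.99 in replicate 2. They scored 84.32, 97.38, 64.26 and 100.8 after depilation and 120.86, 75.36, 52.72 and 191.22 after imiquimod. The rightmost had the highest score of the 4 in E16.5 replicate 1, depilation and imiquimod.

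A further 12 windows, some of which share regions, held 3 core regions each. On chromosome 2, from 167906139 to 168057169, the third of them was the region at 168056099 named above, and the others scored 92.31 and 239.45 in E16.5 replicate 1, 133.55 and 53.03 in replicate 2, 76.58 and 97.96 after depilation and 103.78 and 165.94 after imiquimod. On chromosome 4, from 151307189 to 151384013, the third was the region at 151382874 named above. The other 2 scored 109.91 and 154.23, 60.16 and 197.98, 69.53 and 51.65, and 101.88 and 77.64 in the same order of lists, so each of these neighbourhoods held regions of unlike rank.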

How the data were processed

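Peak lists of 4 Grhl3 ChIP-seq libraries were used, 1 list per library. Bowtie 0.12.7, bedtools 2.11.2 and the build mm9 are named, without a role, per the submitters' processing notes. The sources used here do not state the caller's settings or whether it used the inputs. The deposited E16.5 and depilation lists give a peak score, whose meaning is not stated. Per the file headers, the imiquimod list gives the length, the summit, the count of tags, the fold enrichment (a ratio) and the FDR in percent. Its score header is lost in the deposited list, and the column was read as the same kind of score. Library depth is unknown, and the number of peaks limits the precision. Intervals are exact 95% binomial (Clopper-Pearson).

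BED starts were raised by 1 bp. Among several peaks of one list in a region, the best scoring one was used. The merging was tested on simulated lists with a fixed peak width each and regions far apart. Several peaks of a list in a region, and regions without a common base, did not occur there. The core regions, lists and comparisons were chosen with earlier results of these data known. The named regions followed a rule: the 10 best by mean percentile, the 2 best scores of each list, the extremes of fold enrichment, width, overlap and mean percentile, and the densest 200 kb windows. Gene names, gene lists, motifs and sequences were not used here, because the reference at hand is on another build. With 1 library per adult condition no test between conditions was made. The alternatives tried are given in the closing section. Software was scipy 1.17.1, pandas 2.3.3, matplotlib 3.10.9, numpy 2.4.6 and Python 3.11.15.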

Additional observations from a re-analysis of the deposited data

How the results depend on the processing

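Against 748 core regions, the rule run anew on other merged sets gave 758 (without E16.5 replicate 1), 1100 (without E16.5 replicate 2) and 1142 (union of both). How many of the 748 recur there was not counted. The better scoring 50% of each list gave 384, a score of 100 or more 62, and an imiquimod FDR of 5% or less 487. A common base, an overlap of 100 bp, peak centres within 250 bp, all chromosomes and a limit of 2 kb gave 713, 746, 591, 750 and 743. The share of merged regions, 5.8%, was 4.1% to 5.68% with a single embryonic list, 4.63% with the union, 2.34% at a score of 100, 5.25% by FDR and 4.58% by centres. The share of embryonic peaks, 19.9%, was 8.27% to 9.53% with a single list and 9.4% with the union, where all peaks of the list form the larger denominator. It was 16.9% for the better 50%, 8.5% at a score of 100, 13% by FDR and 15.7% by centres, settings that leave fewer peaks or regions. The median centre offset, 99.8 bp, was 86.7 to 94.8 bp with a single list, 91.3 bp with the union and 81.3 bp by centres, which removes wider offsets by construction. No paired analysis was possible because each adult condition has 1 library, whose title carries no replicate number. Depth is unknown, so a peak missing from a list may lie below its threshold. The imiquimod list stops at an FDR of 10% and a score of 249.45, so a peak missing from it may also have scored higher. This was not tested.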
